A study of Bos taurus with 48 samples.

Results

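The muscle of restricted cattle was followed from diet time 1 to diet time 2, using the restricted channel of 8 two-colour arrays out of the 48 arrays in the series. The members were defined by their labels alone: every channel labelled with a weight loss diet at time 1 (4 arrays) or time 2 (4 arrays). All animals were adult Belmont Red cattle, all samples were biopsies of the longissimus dorsi muscle of the back, and total RNA was amplified and labelled with Cy3 or Cy5. The other channel of each of the 8 arrays held RNA of a Belmont Red animal on a weight growth diet at the same time, and 4 further arrays compared the same diets at time 0. The study describes a period of deprivation followed by re-alimentation, but the sources used here give no days for the 3 times, no ages for these animals, and do not say which of the 3 times fell after re-feeding began.

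Restricted animal RL27 was on 1 array at time 1 and on 2 arrays at time 2, RL24 was on 2 arrays at each time, and RL671 was on 1 array at time 1. The restricted change therefore rests on 2 animals measured at both times, RL27 and RL24, of 3 animals at time 1. RL27 was labelled with Cy5 at time 1 and Cy3 at time 2 and RL24 the other way round, so that an additive effect of dye cancels in the mean of their changes. The 4 arrays of time 1 lay on one slide and the 4 arrays of time 2 on another, each with its own scan. For the restricted change alone, time and slide cannot be told apart. The growth animals went through the same pair of slides, and the difference between the changes of the 2 diets cancels any slide effect that both channels of an array share. The growth animals at both times were RG166 and RG208, each on 2 arrays at time 2, and RG604 and RG157 were measured at time 1 only of the 2 times. RG166 and RG208 were labelled with Cy3 at time 1, and with Cy5 on 1 array and Cy3 on the other at time 2. Dye therefore did not cancel in the growth change or in the difference between diets. There its removal rests on the dye term of the fit.

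Skeletal muscle is built of fibres packed with actin, myosin and their regulatory proteins, and fast fibres make much of their ATP from glycogen through glycolysis. When an animal eats too little, muscle is the main store of protein that is drawn on. Proteins are tagged with ubiquitin and cut by the proteasome, partly under transcription factors of the FOXO family, while insulin and IGF signalling promote protein synthesis and growth. Collagen and other matrix proteins come from fibroblasts between the fibres, and a biopsy also holds fat cells, vessels and leukocytes.

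Values are normalised log2 intensities per channel, and a change is the log2 value at time 2 minus that at time 1, so that a change of 1 is a doubling. Between 65.1% and 67.7% of spots were well above background in the 4 restricted channels of time 1 and between 67.7% and 71.2% in those of time 2. The channels held muscle RNA by 7 markers (ACTA1, CKM, MB, DES, TNNC2, MYL11 and TTN; the eighth, TNNI2, was not matched on the array), whose summed level was 19.10 to 19.34 on the log2 scale at time 1 and 19.45 to 20.03 at time 2. Fibroblast and leukocyte markers were also measured in all channels, and their levels at the 2 times are given beside the matrix and immune genes. The 2 arrays of 1 animal at 1 time correlated at r = 0.999 across 14028 genes, and different animals of 1 time at r = 0.980 to 0.987. Arrays of 1 animal at 1 time were therefore averaged, and counted once. In a biopsy, more cells of a type and more RNA per cell cannot be told apart.

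From time 1 to time 2, 106 of 14028 genes changed in the restricted animals (0.756% of those tested; limma with animal as a block, Benjamini-Hochberg adjusted p under 0.05). Of these, 64 rose (0.456%) and 42 fell (0.299%), and 2473 genes had an unadjusted p under 0.05. The risers included 6 fast fibre genes and 9 genes of glycolysis and glycogen, whereas of the genes that fell MYF6 alone was on a gene list used here. The gene lists were chosen with earlier results of these data known, so counts on them are descriptions and not independent evidence. The median change was 1.50 among the genes that rose and -1.47 among those that fell. All 106 genes moved the same way in both animals, and in 102 of them the 4 channels of time 1 and the 4 of time 2 did not overlap. Over all genes, the channels of time 2 were all above those of time 1 for 13.7% of genes and all below for 14.6%. The split between rising and falling genes depended on scaling: 60.4% of the calls were higher here, against 26.4% when arrays were not normalised to each other (loess only), a setting that moved the median of all genes by -0.19 in the restricted and -0.30 in the growth animals. Median centring moved the median of all genes by 0.12 in the growth animals and by -0.11 in the difference between diets, and loess only moved the latter by 0.11.

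Both animals are needed for these calls. Without RL27, 3 genes were called, and without RL24, 37 genes were called, of which 13 were among the 106. Without the time 1 array of RL27 and RG166, no gene passed (limma, 556 at an unadjusted p under 0.05), and without that of RL671 and RG208, 24 passed. All 106 genes kept their direction under each of these, which follows in part from calling genes on which both animals agree. The plot of the changes in both animals shows where the calls lay among all genes.

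**Figure D1:**
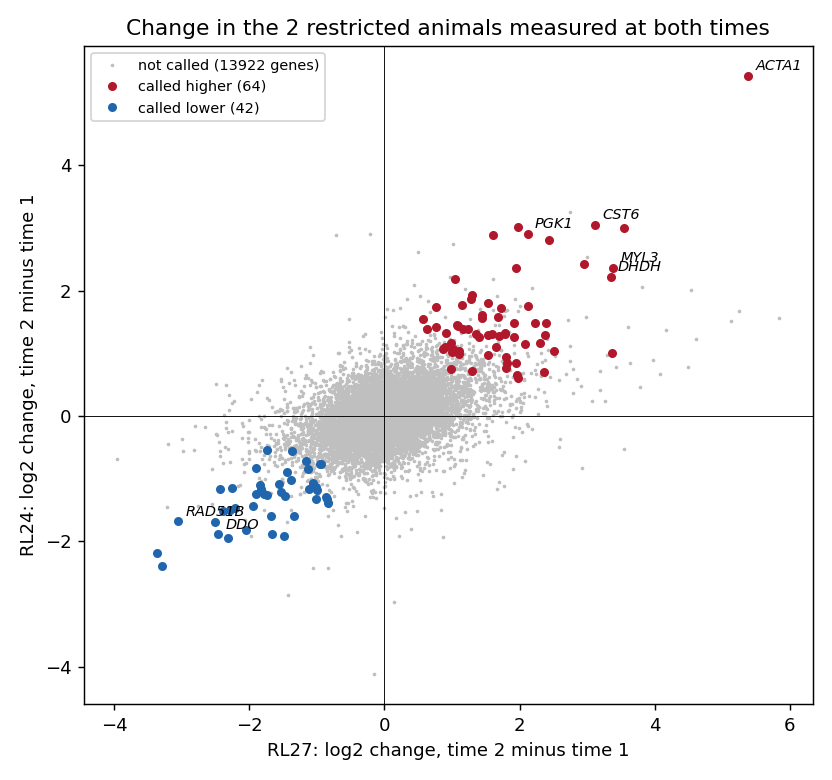
Each point is a gene, with its log2 change from time 1 to time 2 in restricted animal RL27 on the horizontal axis and in RL24 on the vertical axis. The 64 genes called higher (red) and 42 called lower (blue) lie away from 0 in both animals, ACTA1 stands apart at the upper right, and over all 14028 genes the changes of the animals correlated at r = 0.452.

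The contractile proteins were led by ACTA1. This gene encodes skeletal muscle actin, the thin filament protein. At time 1 its level was 12.04 in RL27, 12.13 and 11.74 in RL24 and 12.17 in RL671, and at time 2 it was 17.74 and 17.11 in RL27 and 17.62 and 17.12 in RL24. All channels of time 2 were far above those of time 1, and the change was 5.41 ± 0.32 (SE, 2 animals, limma adjusted p = 0.00447), or 42.5-fold. The gene was read by 1 probe, and whether RNA of other actins, which are close in sequence, bound to it was not tested.

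MYL1, the essential light chain of fast myosin, was at 15.85 in RL27, 16.23 and 15.52 in RL24 and 16.27 in RL671 at time 1, and at 17.32 and 17.44 in RL27 and 17.62 and 17.73 in RL24 at time 2. TPM1, a tropomyosin that lies along the thin filament of fast fibres, was at 16.47, 15.71, 15.39 and 16.78 at time 1 and at 17.59, 17.81, 17.67 and 17.44 at time 2, with animals in the order RL27, RL24, RL24, RL671 and RL27, RL24, RL24, RL27. For neither gene did the times overlap. MYL1 rose by 1.66 ± 0.19 (limma adjusted p = 0.0236) and TPM1 by 1.61 ± 0.17 (limma adjusted p = 0.0236). TPM1 moved by 1.04 in RL27 and by 2.19 in RL24.

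Of 13 measured genes on a list of fast fibre proteins, 6 rose and none fell, against 0.456% and 0.299% of all genes. The median change was 0.83 against -0.01 over all genes. In 5 of the 13 the channels of time 2 all lay above those of time 1, against 13.7% of all genes. Beside MYL1 and TPM1 the risers were MYH1, the heavy chain of fast type 2X fibres (0.86 ± 0.14, limma adjusted p = 0.0454), and TNNT3, ACTN3 and MYBPC2. The channels of MYH1 overlapped between times. TNNT3, ACTN3 and MYBPC2 were named after their values were seen. TNNT3 encodes fast troponin T, ACTN3 the alpha-actinin of fast fibres and MYBPC2 fast myosin binding protein C, and they rose by 1.50, 1.26 and 1.10. Not all fast fibre genes moved: TNNC2, fast troponin C, had a change of 0.39 (adjusted p = 0.320, saturated in 2 of the 8 restricted channels), MYL11, the fast regulatory light chain, -0.14 (adjusted p = 0.811), and PVALB, the calcium buffer parvalbumin, -0.40 (adjusted p = 0.66). The value of MYL11 turned above 0 under loess only and median centring.

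Of 12 measured genes on a list of slow fibre proteins, 1 rose and none fell, against 0.456% and 0.299% of all genes. The list also names MYH2, a heavy chain of fast fibres. The median change was 0.24, which ran from 0.07 to 0.55 over the scaling alternatives. The riser was MYL3, the essential light chain of slow fibres and of the heart ventricle, which stood at 11.61 in RL27, 12.38 and 12.03 in RL24 and 12.37 in RL671 at time 1. At time 2 it stood at 15.07 and 14.92 in RL27 and 14.55 and 14.60 in RL24. The times were separated by more than the whole spread within either, and MYL3 rose by 2.87 ± 0.46 (limma adjusted p = 0.0448). The slow myosin heavy chain MYH7 had a change of 0.27 and slow troponin C, TNNC1, of -0.08, and neither passed.

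Other structural genes went different ways. PDLIM7 and LDB3, scaffold proteins of the PDZ and LIM domain family of which LDB3 sits in the Z-disc, rose by 2.50 and 1.12 and were named after their values were seen. MYL9, the regulatory light chain of smooth muscle and non-muscle myosin, rose by 1.73 ± 0.19 (limma adjusted p = 0.0236), while the 4 smooth muscle and pericyte markers had a median change of 0.28 and none was called. The muscle intermediate filament gene DES was at 17.13 to 17.77 at time 1 and at 16.10 to 16.38 at time 2. DES had no overlap between times but missed the threshold, with a change of -1.14 ± 0.20 (adjusted p = 0.061). Myoglobin, MB, moved in one animal and not in the other: its change was -0.22 in RL27 and 2.90 in RL24. TTN, the giant protein titin, had a change of 0.32 (adjusted p = 0.606), with 0.39 in RL27 and 0.24 in RL24. The fit without RL24 gave -0.29. There dye no longer cancels, and the restricted change also rests on the dye term.

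**Figure D2:**
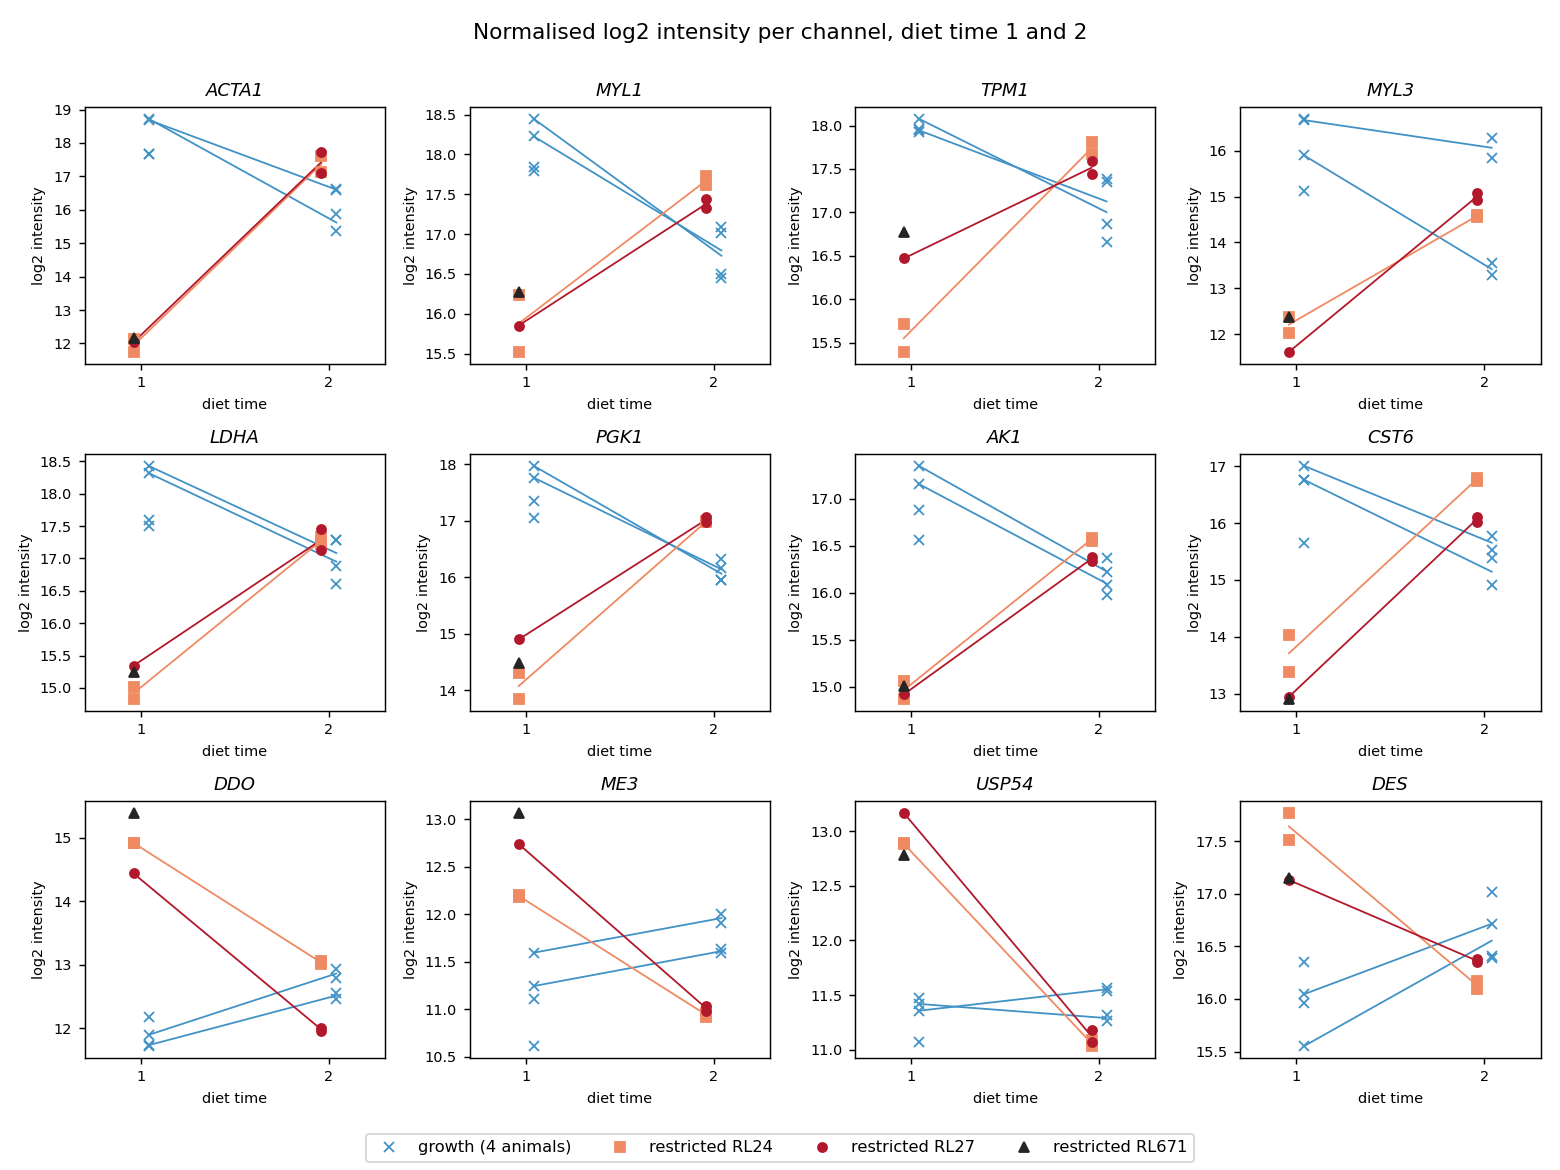
Normalised log2 intensity in each channel at diet time 1 and 2 for 12 genes, with restricted animals RL27 (red circles), RL24 (orange squares) and RL671 (black triangles) and the 4 growth animals (blue crosses); lines join the means of animals measured at both times. The restricted channels rise in the upper 8 panels, from 12.04 to 17.74 in ACTA1 of RL27, and lie lower at time 2 in the bottom row, where DES missed the threshold.

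Glycolysis moved with the contractile genes. Of 21 measured genes of glycolysis and glycogen metabolism, 9 rose and none fell, against 0.456% and 0.299% of all genes. The median change was 1.00. In 16 of the 21 the channels of time 2 all lay above those of time 1, against 13.7% of all genes. LDHA, the muscle subunit of lactate dehydrogenase, was at 15.34 in RL27, 15.01 and 14.83 in RL24 and 15.24 in RL671 at time 1, and at 17.13 and 17.45 in RL27 and 17.22 and 17.33 in RL24 at time 2. The lowest channel of time 2 lay well above the highest of time 1, and LDHA rose by 2.15 ± 0.19 (limma adjusted p = 0.0164), or 4.44-fold.

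PGK1, phosphoglycerate kinase, was at 14.90, 14.31, 13.85 and 14.49 at time 1 and at 16.97, 16.98, 17.00 and 17.07 at time 2, in the order of arrays used for TPM1. Its 4 channels of time 2 were nearly equal, and it rose by 2.52 ± 0.29 (limma adjusted p = 0.0236). The other 7 were named after their values were seen. They were PGAM2, the muscle phosphoglycerate mutase (2.25), PKM, pyruvate kinase (1.70), ENO3, muscle enolase (1.62), PHKA1, a regulatory subunit of the muscle phosphorylase kinase that switches on glycogen breakdown (1.56), GPI, glucose phosphate isomerase (1.26), TPI1, triosephosphate isomerase (1.06), and GAPDH (1.05). ALDOA, aldolase, had a change of 1.00 and PFKM, phosphofructokinase, of 0.77, and both missed the threshold. The 3 members with changes below 0 were UGP2 (-0.96) and GBE1 (-0.64), enzymes of glycogen synthesis, and the glucose transporter SLC2A4 (-0.39). They were named after their values were seen, and none was called.

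Enzymes that pass phosphate between adenylates and creatine were examined next. AK1, the muscle adenylate kinase, was at 14.87 to 15.06 at time 1 and at 16.34 to 16.58 at time 2. The channels of each time lay close together, and AK1 rose by 1.52 ± 0.15 (limma adjusted p = 0.0226). CKMT2, the mitochondrial creatine kinase of muscle, rose by 1.62 and was named after its values were seen. CKM, the cytosolic creatine kinase, had a change of 0.93 in RL27 and 0.90 in RL24, and with 0.91 ± 0.18 it missed the threshold (adjusted p = 0.0693).

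The other genes among the 12 named risers had different functions. CST6, an inhibitor of cysteine proteases, was at 12.95, 14.03, 13.39 and 12.91 at time 1 and at 16.02, 16.75, 16.79 and 16.11 at time 2, and rose by 3.09 ± 0.30 (limma adjusted p = 0.0226). DHDH, dihydrodiol dehydrogenase, was at 9.94, 10.80, 10.85 and 9.45 at time 1 and at 13.32, 13.04, 13.06 and 13.26 at time 2, and rose by 2.79 ± 0.25 (limma adjusted p = 0.0164). In DHDH the restricted animals were further apart at time 1 than at time 2. HACD1, an enzyme of very long chain fatty acid synthesis expressed in muscle, rose by 1.94, ODC1, the first enzyme of polyamine synthesis, by 1.45, and CACFD1, a membrane protein, by 1.72. By size, the highest change among the called risers after ACTA1 was 3.27 in OR5A1, an olfactory receptor gene named after its values were seen. OR5A1 was at 6.03 to 7.06 in the restricted channels of time 1. CACFD1 had the lowest levels of the 12 risers named by smallest p, 6.51 to 7.07 at time 1 and 8.41 to 8.82 at time 2.

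The genes that fell included enzymes of amino acid, sugar and detoxification metabolism. DDO, which oxidises D-aspartate, was at 14.44 in RL27, 14.93 and 14.92 in RL24 and 15.39 in RL671 at time 1. At time 2 it was at 11.96 and 12.00 in RL27 and 13.06 and 13.00 in RL24. All channels of time 2 lay below those of time 1, and DDO fell by 2.17 (SE 0.17, limma adjusted p = 0.0164). ME3, the mitochondrial malic enzyme that makes NADPH, was at 12.18 to 13.07 at time 1 and at 10.92 to 11.03 at time 2, and fell by 1.49 (SE 0.14, limma adjusted p = 0.0226). USP54, of the ubiquitin-specific peptidase family, was at 12.78 to 13.17 and then at 11.03 to 11.18, and fell by 1.94 (SE 0.16, limma adjusted p = 0.0164).

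SLC25A21, a mitochondrial carrier of oxodicarboxylates, fell by 1.57, VNN2, of the pantetheinase family, by 2.10, GSTM3, a glutathione transferase, by 1.47, and GALK1, which phosphorylates galactose, by 1.14. GALK1 lay within 13.63 to 13.89 in all 4 channels of time 1 and within 12.48 to 12.57 in all 4 of time 2. GSTM3 overlapped between times, because the animals differed from each other at both: RL27 went from 15.14 to 13.81 and 13.77, and RL24 from 13.10 and 13.15 to 11.57 and 11.48. RAD51B, which acts in DNA repair by recombination, fell by 2.37, YBX2, a Y-box protein that binds nucleic acids, by 1.50, EMC3, a subunit of the endoplasmic reticulum membrane protein complex, by 1.37, ALG13, which acts in protein glycosylation, by 1.70, and CCDC162P, annotated as a pseudogene, by 2.13. Values of CCDC162P were 12.79 in RL27, 11.0 on both arrays of RL24 and 13.49 in RL671 at time 1 and 10.48 in RL27 and 9.04 and 9.08 in RL24 at time 2, so that its animals also stood apart at each time.

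One regulator of muscle identity was among the genes that fell. MYF6, a myogenic transcription factor that is high in adult muscle, was at 14.26, 14.73, 14.78 and 13.89 at time 1 and at 13.18, 13.55, 13.58 and 13.34 at time 2. The times did not overlap, and MYF6 fell by 1.10 (SE 0.14, limma adjusted p = 0.0285). It was the single gene to pass out of 21 of the IGF system, myostatin and myogenic factors, against 0.756% of all genes. The median change of the 21 was -0.02. IGFBP5, an IGF binding protein, had a change of 1.24 (adjusted p = 0.132).

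The growth animals were measured on the same slides. None of 14028 genes passed in them (0%; limma, 1328 at an unadjusted p under 0.05; 944 passed when each channel was taken as a unit with lmscFit). The difference between the changes of the 2 diets passed for 62 genes (0.442%), 48 with the higher change in restricted animals (0.342%) and 14 with the lower (0.0998%). Of these 62 genes, 46 were also called in the restricted animals alone. Of the 48 and 14, 77.4% were higher, against 61.0% under quantile normalisation, 39.2% under median centring and 60.3% with the log ratios of Feature Extraction. All 62 kept their direction under each alternative tried, except the filter of all restricted channels. That filter left 12721 genes, and 59 of the 62 were counted there with the same direction.

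For the contractile and glycolytic genes, the channels of the 2 diets were further apart at time 1 than at time 2. ACTA1 in growth channels ranged from 17.68 to 18.73 at time 1 and from 15.36 to 16.62 at time 2, while the restricted channels of time 2 lay at 17.11 to 17.74, above them. At time 1 the Cy3 growth channels, of RG166 and RG208, were at 18.73 and 18.69. The Cy5 ones, of RG604 and RG157, were at 17.68 and 17.68. Normalised levels as high as these are relative: in 2 growth channels of time 1 and 2 restricted channels of time 2, all labelled with Cy3, the ACTA1 level lay above the brightest raw spot of its own channel. Raw log2 intensities of ACTA1 were 10.73 to 13.24 in the restricted channels of time 1 and 16.21 to 18.41 in those of time 2, and 17.74 to 18.54 and 14.70 to 17.69 in the growth channels. The difference between the changes was 7.64 ± 0.44 for ACTA1 (limma adjusted p = 0.00356), 3.43 ± 0.26 for LDHA (limma adjusted p = 0.00902), 4.08 ± 0.39 for PGK1 (limma adjusted p = 0.0132) and 3.1 ± 0.26 for MYL1 (limma adjusted p = 0.00902). Part of each difference came from the growth animals, whose change was -2.23 in ACTA1, -1.27 in LDHA, -1.56 in PGK1 and -1.44 in MYL1, none of which passed. These are changes of the fit, which also drew on growth animals without a time 2 value. In ACTA1, RG166 itself changed by -3.11 and RG208 by -2.09. The size of the growth change depended on scaling: that of LDHA ran from -1.26 to -0.36 over the scaling alternatives, and that of MYL1 from -1.42 to -0.54. The restricted change of LDHA ran from 2.01 to 2.54 over the same alternatives.

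Fast fibre and glycolytic genes as lists followed the same course. Of 21 glycolysis and glycogen genes, 11 had a higher change in the restricted animals by this test and none a lower one. Over all genes these shares were 0.342% and 0.0998%. The median growth change of the 21 was -0.85, with 20 of 21 below 0. Of 13 fast fibre genes, 7 had a higher change, with a median growth change of -1.0. Over the scaling alternatives the median growth change ran from -0.83 to -0.34 for the glycolysis and glycogen genes and from -1.01 to -0.23 for the fast fibre genes. The difference also passed for CST6 (4.31), DHDH (3.01), HACD1 (2.85), AK1 (2.51), MYL3 (4.34), MYL9 (1.85) and ODC1 (1.75). In DHDH, MYL9 and ODC1 the growth change was small (-0.22, -0.12 and -0.30). CKM passed here at 1.95 ± 0.25 (limma adjusted p = 0.0281), and MYH1 at 2.25 ± 0.19 (limma adjusted p = 0.00902).

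The genes that fell were compared in the same way. DDO in growth channels ranged from 11.72 to 12.17 at time 1 and from 12.47 to 12.93 at time 2, and the difference between changes was -2.89 ± 0.24 (limma adjusted p = 0.00902). USP54 in growth channels ranged from 11.07 to 11.47 and then from 11.26 to 11.57, with a difference of -2.05 ± 0.22 (limma adjusted p = 0.0162). For ME3, SLC25A21, VNN2 and EMC3 the difference was -1.86, -1.66, -2.19 and -1.74, and all passed. DES passed in this test, with a difference of -1.94 ± 0.28 (limma adjusted p = 0.0419). For MYF6, GALK1 and RAD51B the growth change was -0.06, -0.17 and -0.15, and the difference did not pass (adjusted p = 0.0747, 0.0787 and 0.0618). On simulated data the difference test recovered fewer changes of 1 than the restricted test. Not passing therefore does not set these genes apart from those that passed.

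A few genes had changes of like size and sign under both diets. SIX3, a homeobox transcription factor, rose by 2.63 in the restricted animals and had a change of 1.78 in the growth animals, and TNFRSF12A, a receptor of the TNF family, rose by 1.37 and had 1.25. The differences of 0.85 and 0.12 did not pass (adjusted p = 0.48 and 0.90). These were named after their values were seen. Among the 64 genes that rose, 50 had a growth change below 0, and among the 42 that fell, 26 had one above 0. Over all 14028 genes, the growth change was below 0 for 7084 and above 0 for 6944.

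**Figure D3:**
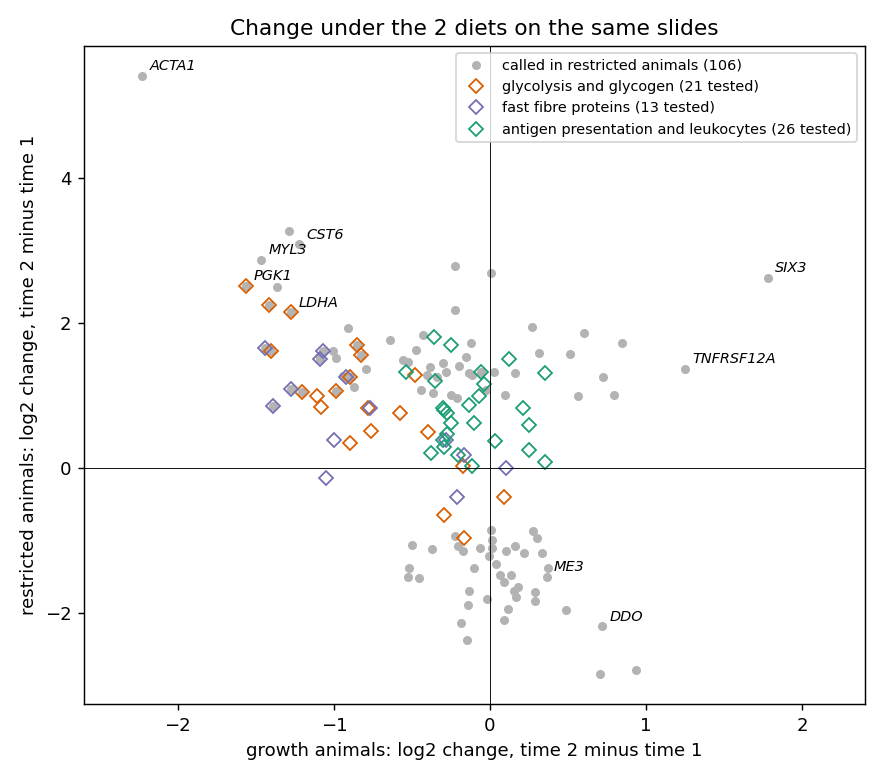
Each point is a gene, with the log2 change of the growth animals on the horizontal axis and of the restricted animals on the vertical axis; grey points are the 106 genes called in restricted animals and diamonds are members of 3 gene lists, called or not. Glycolysis and fast fibre genes lie mostly at the upper left, such as PGK1 at 2.52 and -1.56, antigen presentation genes lie above 0 near the vertical line, and SIX3 and TNFRSF12A lie at the upper right.

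Matrix genes were higher at time 2 by value, but no member of either list passed. All 10 measured collagens had changes above 0, with a median of 0.75. In 6 of them the channels of time 2 all lay above those of time 1, against 13.7% of all genes. COL1A1, a chain of type I collagen, was at 9.74 in RL27, 10.51 and 10.46 in RL24 and 10.98 in RL671 at time 1 and at 14.63 and 15.13 in RL27 and 12.00 in both RL24 channels at time 2. Its change was 5.13 in RL27 and 1.51 in RL24, and the mean of 3.32 ± 1.00 missed the threshold (adjusted p = 0.146). COL3A1, of type III collagen, had a change of 2.12 (adjusted p = 0.123) and FN1, fibronectin, of 2.51 (adjusted p = 0.151), and both were also larger in RL27.

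Of 26 other matrix genes, 25 had changes above 0, with a median of 1.16 in RL27 and 0.34 in RL24. LAMB1, a laminin chain of the basement membrane, had a change of 0.75 (adjusted p = 0.181), which was -0.017 without the time 1 array of RL27. Of the fibroblast markers (PDGFRA, COL1A1, COL3A1, DCN and LUM), all but PDGFRA are on these lists and are not a separate measure. The summed level of the 5 markers was 12.35 to 13.00 at time 1 and 13.55 to 15.56 at time 2 in restricted channels. In growth channels it was 15.30 to 16.67 and 15.24 to 16.40. In 3 of the 5 the channels of time 2 all lay above those of time 1, against 13.7% of all genes. None was called, and PDGFRA, which is not a matrix gene, had a change of 0.30. Their part in the matrix values was not tested.

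Immune genes were higher at time 2 by value. Of 26 measured genes of antigen presentation and leukocytes, 1 rose and none fell, against 0.456% and 0.299% of all genes. All 26 had changes above 0, with a median of 0.78 against -0.01 over all genes. In 9 of the 26 the channels of time 2 all lay above those of time 1, against 13.7% of all genes. ITGB2, the integrin beta chain found on leukocytes, was at 9.26 in RL27, 9.83 and 9.91 in RL24 and 10.57 in RL671 at time 1 and at 10.63 and 10.60 in RL27 and 11.17 and 11.19 in RL24 at time 2. It rose by 1.33 ± 0.20 (limma adjusted p = 0.0416), with 1.36 in RL27 and 1.31 in RL24, although RL671 at time 1 was nearly as high as RL27 at time 2. CIITA, the activator of MHC class II genes, had a change of 1.70 (adjusted p = 0.0626), with 2.91 in RL27 and 0.49 in RL24. FCGR3A, an Fc receptor of macrophages and natural killer cells, had a change of 1.31 (adjusted p = 0.0727).

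Genes of cytotoxic lymphocytes and chemokines were among the 64 that rose, and were named after their values were seen. PRF1, perforin, was at 7.43, 8.12, 8.19 and 8.56 at time 1 and at 9.71, 9.65, 9.64 and 9.62 at time 2, and rose by 1.86 ± 0.22 (limma adjusted p = 0.0236). GZMB, a granzyme, rose by 1.59, CCL5, a chemokine of T cells, by 1.94, CCL19, a chemokine that draws lymphocytes and dendritic cells, by 1.04, and IDO1, which degrades tryptophan, by 2.69. Of these 5 the difference between diets passed for CCL19 alone (1.41, limma adjusted p = 0.036). The 6 leukocyte markers are all members of the antigen presentation and leukocyte list, so they are not a separate measure. Their summed level was 11.67 to 12.40 at time 1 and 12.75 to 13.25 at time 2 in restricted channels. In growth channels it was 12.57 to 13.14 and 12.27 to 13.10. All 6 had changes above 0, ITGB2 alone was called, PTPRC had a change of 1.00 and CD14 of 0.04, and their part in the immune values was not tested.

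Proteasome genes were lower at time 2 by value. Of 34 measured genes of the proteasome and ubiquitin, none was called, but 30 had changes below 0, the median was -0.37, and in 20 of the 34 the channels of time 2 all lay below those of time 1, against 14.6% of all genes. PSMC5, an ATPase of the regulatory particle, was at 16.49 in RL27, 16.39 and 16.34 in RL24 and 16.65 in RL671 at time 1 and at 15.57 and 15.50 in RL27 and 15.96 and 15.86 in RL24 at time 2. Its change was -0.71 ± 0.15 (adjusted p = 0.0863), and that of PSMB4, of the core particle, was -0.74 ± 0.17 (adjusted p = 0.0911). The median over the list was -0.39 in RL27, -0.25 in RL24 and 0.14 in the growth animals. POMP, which helps to assemble the proteasome and was on no list, fell by 0.85 (SE 0.13, limma adjusted p = 0.0419) and was named after its values were seen.

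Genes of atrophy and the FOXO pathway had no member called, 19 of 29 below 0 and a median of -0.22. CDKN1A, an inhibitor of the cell cycle, was at 15.70 in RL27, 12.88 and 12.96 in RL24 and 15.44 in RL671 at time 1 and at 11.76 and 11.74 in RL27 and 12.23 and 12.25 in RL24 at time 2. The change was -3.95 in RL27 and -0.68 in RL24, and -2.32 ± 0.41 as their mean (adjusted p = 0.0592). KLF15, a factor that responds to glucocorticoids, had a change of -1.38 (adjusted p = 0.0601). The ubiquitin ligases of muscle atrophy, TRIM63 and FBXO32, had changes of -0.90 (adjusted p = 0.26) and -0.62 (adjusted p = 0.65).

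**Figure D4:**
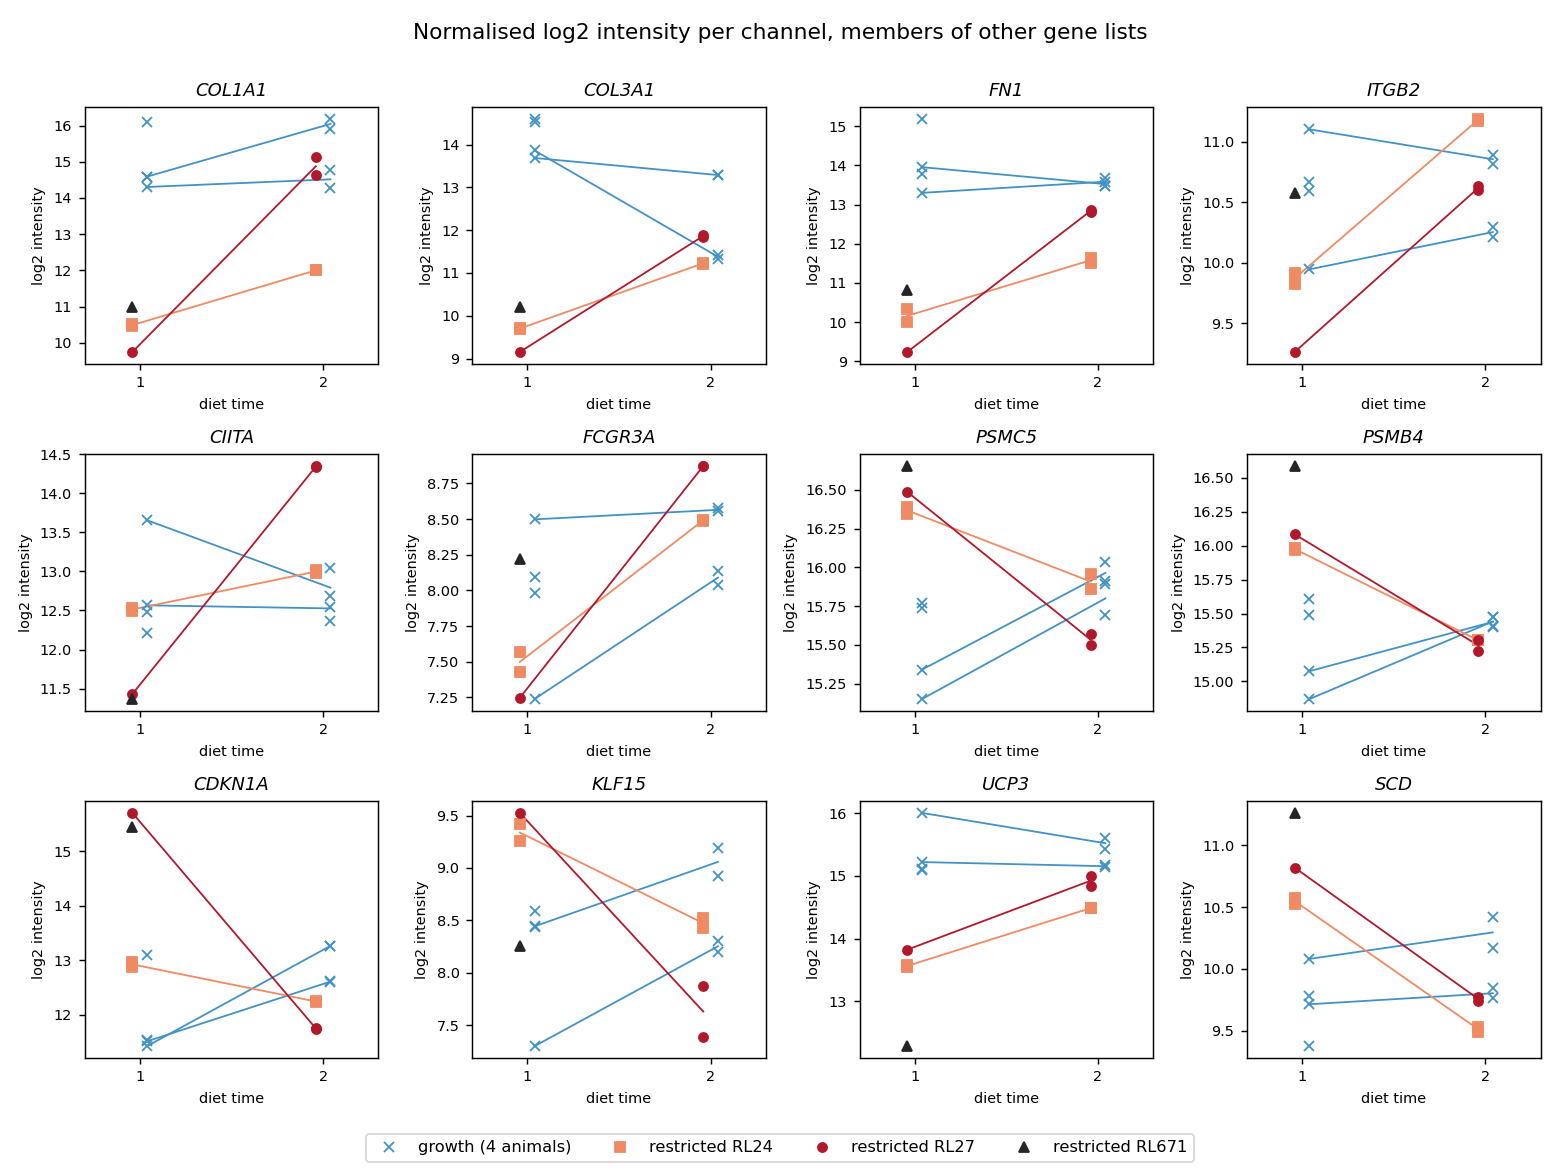
Normalised log2 intensity in each channel at diet time 1 and 2 for 12 members of the other gene lists, with symbols and lines as for the contractile and glycolytic genes. ITGB2 alone passed the test; COL1A1 and CDKN1A differ most between RL27 and RL24, with changes of 5.13 and 1.51 and of -3.95 and -0.68.

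Fat and oxidation genes gave no calls. Of 18 genes of fatty acid and triglyceride synthesis, 12 had changes below 0, with a median of -0.29. In 7 there was no overlap on the lower side, against 14.6% of all genes. SCD, which makes monounsaturated fatty acids, was at 10.53 to 11.26 at time 1 and at 9.49 to 9.78 at time 2, with a change of -1.05 ± 0.20 (adjusted p = 0.0672), and ACSS2, which activates acetate, had -0.60 (adjusted p = 0.103). The 17 adipocyte genes had a median of -0.06, made of 0.36 in RL27 and -0.46 in RL24. CIDEA, a lipid droplet protein, had a change of -1.02, with -1.76 in RL27 and -0.29 in RL24. PCK1, of glyceroneogenesis, had a change of -1.29, with -2.01 in RL27 and -0.56 in RL24. Adipocyte markers, which are also on the adipocyte list, had a summed level of 9.58 to 11.19 at time 1 and 10.26 to 11.21 at time 2. LEP was below the filter. AGPAT2, of triglyceride synthesis, had a change of -0.62.

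Of 27 genes of fatty acid uptake and beta oxidation, 8 had no overlap on the higher side, against 13.7% of all genes, and the median was 0.16. UCP3, a mitochondrial carrier of muscle, had a change of 1.01 (adjusted p = 0.0833) and CPT1A, which admits fatty acids to mitochondria, of 1.02 (adjusted p = 0.0852). Of 45 genes of the citric acid cycle and respiratory chain, 32 lay above 0 with a median of 0.14, led by MDH2, malate dehydrogenase (0.78), and NDUFB5, of complex I (0.82). In the growth animals, 41 of the 45 lay below 0, with a median of -0.35 that ran from -0.35 to -0.0075 over the scaling alternatives. Cholesterol genes had a median of 0.04 over 15 measured, and MVD and HMGCS1, both of sterol synthesis, had changes of -1.10 and 0.47.

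No gene on the lists of chaperones, clock, immediate early, cell cycle and ribosomal protein genes was called. Heat shock proteins and chaperones had a median of 0.10 over 25 genes, with HSP90AA1 at 0.86 and HSPA8 at 0.99, the latter made of 1.60 in RL27 and 0.38 in RL24. Clock genes had a median of -0.01 over 17 genes, with the output factor DBP at 0.93 and PER3 at -1.20, and the times of day of the biopsies are not given in the sources used here. Immediate early genes had a median of -0.25 over 22 genes, with CCN1, a matricellular protein, at -2.14 (adjusted p = 0.0634) and the transcription factor KLF4 at -1.33.

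Cell cycle genes had a median of 0.33 over the 15 of 25 that were measured, with TYMS, of thymidylate synthesis, at 0.54. The filter can be met by the 4 channels of 1 time alone. For dim genes such as these, the median therefore depends in part on the filter and is not support for a change. RRM2, a subunit of ribonucleotide reductase, was not well above background at time 1 and was at least 1.47-fold higher at time 2, without passing (adjusted p = 0.132). Ribosomal protein genes had a median of -0.17 over 22, with RPL13A at -0.52, but their median ran from -0.27 to 0.15 over the scaling alternatives and was -0.54 in RL27 and 0.21 in RL24. CASQ2, the calcium store protein of slow fibres and heart, had a change of 1.33 (adjusted p = 0.181).

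The study's own gene modules overlap with the lists above, and they were chosen on arrays that include these and are not independent evidence. In the muscle and glycolysis module, 12 of 41 measured genes rose and none fell, against 0.456% and 0.299% of all genes. The median was 0.90. In 29 of the 41 the channels of time 2 all lay above those of time 1, against 13.7% of all genes. The immune module had a median of 0.77 over 20 genes, the mitochondrial module 0.33 over 31 and the fat module 0.17 over 18. The cell cycle module had 0.25 over the 23 of its 49 genes that were measured, with the same limit from the filter. None of these modules had a called member. Members with the smallest p included MYO1G, a myosin of leukocytes (0.99), and CDCA5, of sister chromatid cohesion (0.53).

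**Figure D5:**
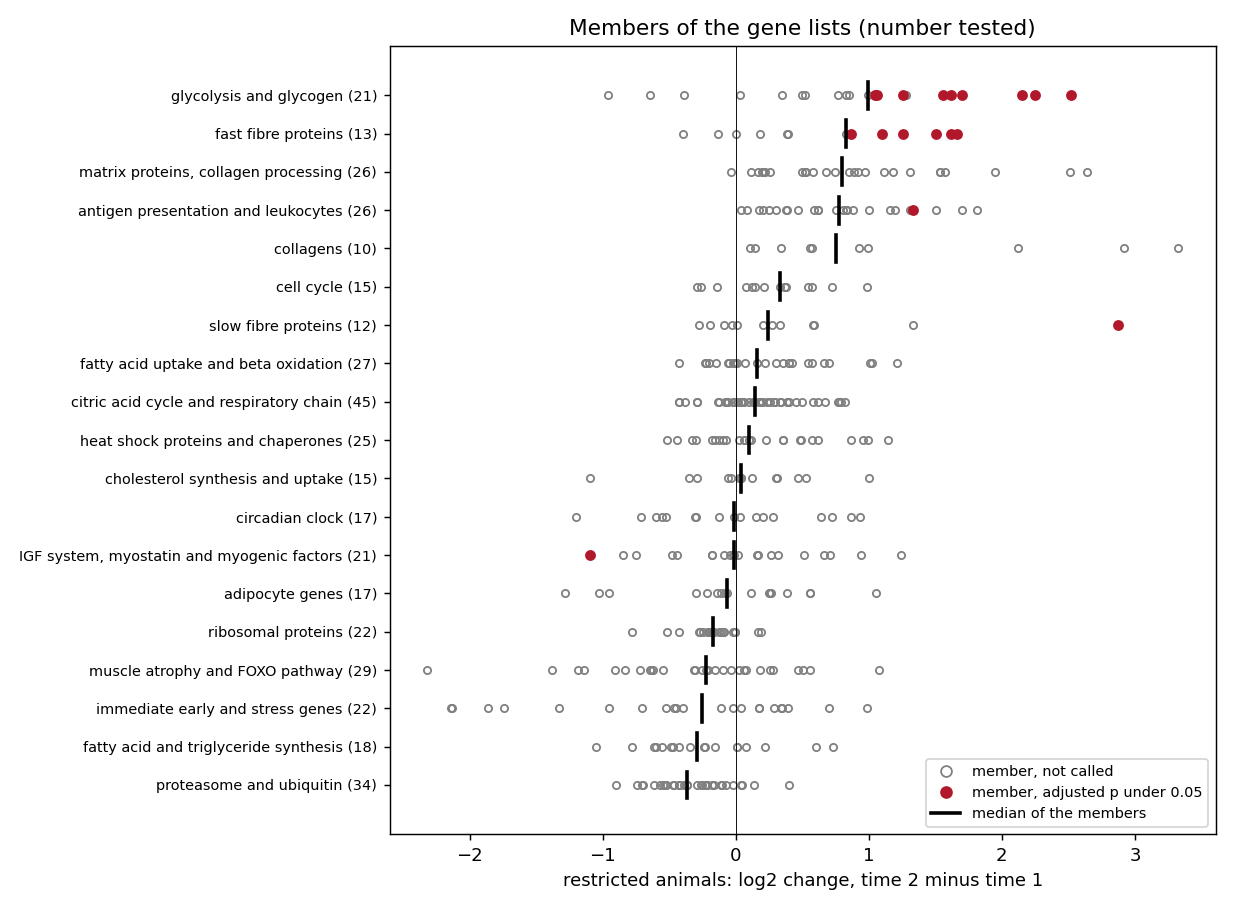
The horizontal axis gives the log2 change of the restricted animals from time 1 to time 2 for each measured member of 19 gene lists (circles, filled red where the adjusted p was under 0.05), and black bars give the medians. Glycolysis has the highest median (1.00) and 9 called members, collagens have none called with members up to 3.32, and the proteasome has the lowest median (-0.37).

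At time 0, the first of the 3 times, the levels of many of these genes were nearer to those of time 2. Time 0 lay on another slide again, so that slide and time cannot be told apart here either, and the values are a description. Restricted channels at time 0 were at 16.18 to 17.12 for ACTA1, against 11.74 to 12.17 at time 1. Of the 106 genes called between times 1 and 2, 85 had a time 0 mean nearer to that of time 2, which was 53 of the 64 that rose and 32 of the 42 that fell, against 58.4% of all genes tested. CACFD1 was an exception, with 6.96 to 7.39 at time 0, close to its 6.51 to 7.07 at time 1. Type I collagen differed widely between animals at time 0, with COL1A1 at 17.36 in RL27, 12.75 in RL24, 11.13 in RL322 and 16.28 in RL671.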

How the data were processed

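Labelled RNA of Belmont Red longissimus dorsi muscle was measured on 12 diet arrays, of which the restricted channels of times 1 and 2 are the members here. The 36 developmental arrays were not used. The authors deposited, for each spot and channel, raw mean intensity, median background intensity and flags from Agilent Feature Extraction 9.5.1 (per the processing notes), as well as log10 ratios (Cy5 to Cy3) that the program had dye-normalised, which entered 1 alternative only. The array design's genome build is not given in the sources used here, and no coordinates are printed.

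Intensities were corrected with normexp (offset 50), normalised by loess within and Aquantile between arrays, and averaged over spots, probes and then channels of an animal at a time (limma 3.58.1, R 4.3.3; Python 3.11.15 for tables). Control and outlier spots were left out. Of 21475 probes, 16664 were matched to RefSeq genes and 4811 were named as the files name them. Probes not well above background in 4 or more of the 8 restricted channels were removed, which left 14028 genes. The limma fit (two-sided) had animal as a block, a time effect per diet and the share of Cy5, with 4 residual and 3.53 prior degrees of freedom. Growth animals of times 0, 1 and 2 shared the spread and the dye term. The growth change came from this fit, so RG604 and RG157 also entered it, though neither was measured at time 2. RL671 has no time 2 value, and in this fit adds nothing to the restricted change. Errors are SEs of the fit, and the small number of arrays and animals limits the precision. The animals are paired by their codes in the labels: deviations from the group mean at times 1 and 2 correlated at r = 0.160 in RL27 and 0.106 in RL24. The fit was tested on simulated data with 200 genes changed in the restricted animals at time 2. The restricted test recovered 65.5% of them at a log2 change of 1 and 97.5% at 2. The difference test recovered 0% and 91%.

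The members and gene lists were chosen with earlier results of these data known. Named genes are the 12 risers and 12 fallers of smallest p with a gene symbol and the same direction in both animals, 6 per direction for the difference between diets, the 2 of smallest p in each of 24 lists (the study's modules included), and the muscle markers. The alternatives were the block, the samples sharing the spread, the dye term, single channels (lmscFit), background, scaling, filter, brightest probe, and arrays or animals left out. No sequences are printed, and 1 gene that the rule names is not reported here.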

Additional observations from a re-analysis of the deposited data

Results flagged for a closer look

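Of 136 groups of 4 channels (68 named genes at each of the 2 times), 3 held a channel that stood apart from the other 3 in the restricted animals, and chance gives about 1 in 20. SLC25A21 was at 9.21 in RL27 at time 1, above the next channel at 8.67. ACSS2 was at 13.13 in RL671 at time 1, above the next at 12.42. PSMB4 was at 15.22 in the first array of RL27 at time 2, below the next at 15.30. Channels of 1 animal are not independent, and SLC25A21 alone of these genes was called.

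The change from time 1 to time 2 differed between restricted and growth animals, by the limma test of the difference, for 21 named genes. The restricted change exceeded that of the growth animals by 7.64 in ACTA1, 4.34 in MYL3, 4.31 in CST6, 4.08 in PGK1, 3.43 in LDHA, 3.1 in MYL1, 3.01 in DHDH, 2.85 in HACD1, 2.69 in TPM1, 2.51 in AK1, 2.25 in MYH1, 1.95 in CKM, 1.85 in MYL9 and 1.75 in ODC1. The difference was -2.89 in DDO, -2.19 in VNN2, -2.05 in USP54, -1.94 in DES, -1.86 in ME3, -1.74 in EMC3 and -1.66 in SLC25A21. Restricted and growth RNA shared each array. The restricted side rested on 2 animals. The growth side came from the fit of all 4 growth animals over times 0, 1 and 2, of which 2 had time 2 values.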

How the results depend on the processing

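The restricted count of 106 genes and the count of 62 for the difference between diets were recomputed under 23 alternatives. The latter was not recomputed with restricted animals only. All calls kept their direction under each, except the filter of all restricted channels. That filter left 12721 genes, and 101 and 59 of the calls were counted there with the same direction. With no replicate block, and so no pairing of the animals, 422 and 140 genes passed, of which 83 and 42 were among the main calls. With each channel as a unit 4079 and 7833 passed, a fit that counts 2 arrays of 1 animal separately. With restricted animals only, 38 passed. With no dye term, 121 and 70 genes passed. Other scalings gave 345 and 153 genes for loess only, 171 and 123 for quantile normalisation, 200 and 153 for median centring, and 235 and 373 for the Feature Extraction log ratios. Leaving out each array in turn gave 0 to 118 and 0 to 104. The count of 0 came without the time 1 array of RL27 and RG166 (556 and 395 at an unadjusted p under 0.05). For the difference, 39 passed without the array of RL24 and RG604, 28 without that of RL24 and RG157, and 104 without the second RL27 array of time 2. Without RL24, 37 and 99 genes passed, and without RL27, 3 and 11. For the growth animals, 1 gene passed with no dye term, 1 with the log ratios, 13 with loess only, 24 with median centring and 944 with single channels; leaving out arrays gave 0. The causes were not tested. Of 28 called named genes, 2 remained called without RL27 and 9 without RL24. Leaving out RL24 or RL27 moved the change by over 1.5 times in 0 of the 28 and in 26 of the 40 named genes that were not called. Calls favour genes on which these animals agree closely, so this contrast follows from the selection and does not measure robustness. Values of 3 genes that were not called changed sign. LAMB1, at 0.75, ran from -0.017 without the time 1 array of RL27 to 0.79 when single arrays were left out, and was 1.45 without RL24. TTN moved to -0.29 without RL24, and MYL11 to 0.003 with single channels, 0.11 with loess only, 0.23 with median centring and 0.12 without RL24. In RL27 itself TTN changed by 0.39 and MYL11 by -0.27. With RL24 or RL27 left out, dye no longer cancels, and the restricted change also rests on the dye term. Signal over background was 2.38 to 5.54 in the restricted channels, which limits the changes of dim genes.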
